A study of Mus musculus with 4 samples.

Results

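The kinesin and dynein motors, the tubulins and the carriers of ciliary transport were read on 4 two-colour arrays that set metanephric mesenchyme (MM), from which the nephrons of the definitive kidney arise, against intermediate mesoderm (IM), the embryonic source of kidneys, gonads and their ducts. Members were all probes whose gene symbol in the platform annotation began with Kif, Klc, Dync, Dynl, Dnah, Dnai, Tuba, Tubb, Tubg, Ift, Bbs or Ttc30, followed by a digit (or, for Kif, a c) where the rule asked for one. This rule uses names alone and found 100 of 15096 gene symbols (of probes with a single symbol), with 111 of 22702 probes: 74 probes of motors, 18 of tubulins and 19 of ciliary transport.

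Both tissues were primary tissue dissected from mouse embryos of both sexes at 10.5 days post coitum, and no strain, treatment or transgene is named in the labels. Each array carried both tissues, with MM in channel 1 on arrays 1 and 2 and in channel 2 on arrays 3 and 4, where the labels name the tissues with their nouns exchanged ("Intermediate Mesenchyme" and "Metanephric mesoderm"), read here as the same tissues. Whether the 4 arrays were made from separate RNA extracts is not stated, and p-values therefore reflect array-to-array spread alone, possibly a technical one. The p-values count the 4 arrays as separate values. Yet arrays of 1 channel orientation correlated at 0.836 and 0.912, and those of different orientation at 0.113 to 0.274 (Pearson, given in full below). The p-values may therefore be too small, and 0 members passed when each orientation was averaged to 1 value. All values are log2 ratios, and a positive ratio means higher in MM. This direction is likely, from the titles and the stated reversal of arrays 3 and 4, although no label gives the dyes by channel.

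Kinesins and dyneins are motors that walk along microtubules, most kinesins towards the plus end and dyneins towards the minus end. Microtubules are polymers of alpha and beta tubulin that grow from a template of gamma tubulin, and in dividing cells they build the spindle. They also form the core of the primary cilium, where intraflagellar transport (IFT) trains are carried outward by kinesin-2 and back by dynein 2. Cells receive Hedgehog signals through this cilium, and kidney tubules become cystic when it fails.

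The groups differed in how often a ratio was given. All 19 ciliary probes had a value on all 4 arrays, against 41 of 74 motor probes (55.4%), 13 of 18 tubulin probes (72.2%) and 62.5% of all probes. Of the 111 members 73 had 4 values and were tested, 11 had 3 values, 25 had 2 and 2 had 1. Of those with 2 values, 24 had them on arrays 1 and 2 alone. By role, 6 of 14 axonemal dynein probes and 4 of 8 alpha tubulin probes had 4 values. The lowest deposited value, -6.64, stands for a ratio of 0.01 on the log2 scale, here called the floor. It was reached by 7 members, each of which also lacked a value on another array, so no tested member rests on it.

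**Figure D1:**
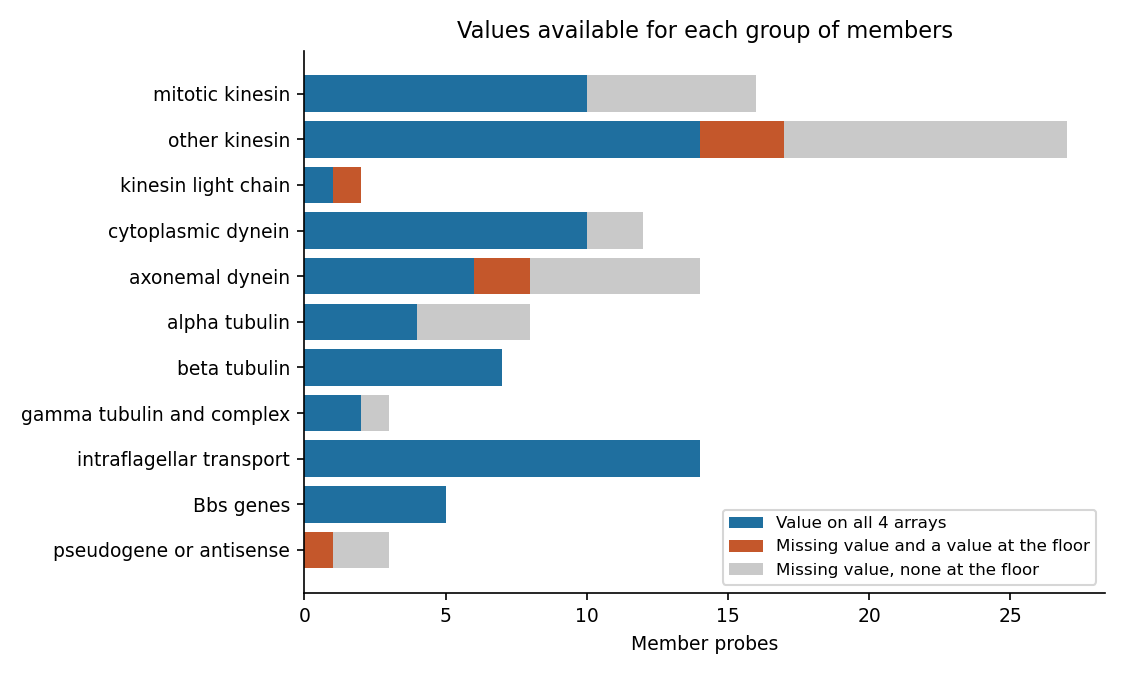
Member probes in each role (horizontal bars, number of probes), divided by whether a value was given on all 4 arrays, a value was missing and another lay at the floor, or a value was missing alone. The intraflagellar transport, Bbs and beta tubulin bars are complete, and 7 members carry a value at the floor.

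Of the 73 tested members, 12 were higher and 16 lower in MM (limma, adjusted p under 0.05), together 38.4%, and 45 did not pass. Over all 14184 tested probes 28.0% were called, 13.6% higher and 14.4% lower. Some of those probes held floor values, which no tested member did. With such probes left out, 13 members were higher and 17 lower, beside 2100 higher and 2275 lower of 13191 probes. Ciliary transport had 3 higher and 6 lower of 19, tubulins 3 higher and 3 lower of 13 and motors 6 higher and 7 lower of 41. The median log2 ratio was -0.12 for ciliary members, 0.04 for tubulins and -0.01 for motors, beside -0.08 for all tested probes. Each group had called members on both sides of 0, and differences between the groups were not tested. With each array centred on its median, 12 members were higher and 11 lower, while all tested probes moved to 15.0% higher and 10.2% lower.

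The 5 called members that differed at least 2-fold were all higher in MM: Ttc30a1, Kif22, Tubb5, Klc1 and Tubg1, or 6.85% of tested members beside 5.25% of all tested probes. Of smaller size, Kif2c and Dync2li1 were higher, and Ift20, Tubb6, one probe of Kif15, Kif3a and Ift43 were lower. These 12 called members had a mean of at least 0.5 in size, or 16.4%, beside 15.0% of all tested probes. Fewer members passed with an array left out: 6 higher and 5 lower without array 1, 5 and 6 without array 2, 7 and 8 without array 3, and 5 and 5 without array 4. Of all 14184 tested probes, 873 were higher and 483 lower without array 1, and 913 and 589 without array 2. Without array 3 it was 1031 and 636, and without array 4 it was 794 and 423. Kif22, Tubb5, Klc1, Tubg1, Dync2li1, Ift20, Tubb6, Kif15 probe 2, Kif3a and Ift43 passed without each array in turn (limma adjusted p = 0.0286 to 0.0489). How many of all tested probes did so was not counted. The calls of Bbs5, Ttc30a1, Dync1li1, Kif18b probe 2, Kif2c and Tubb3 were lost without some arrays, and the other 12 calls were lost whichever array was left out (limma adjusted p = 0.0515 to 0.184). When probes with 3 values were tested too, Ift46, Ift57, Ift88, Dnah8 probe 1, Kif13a, Kif3c, Tuba1a and Tubb1 lost their calls (limma adjusted p = 0.053 to 0.0789), and Kif13a also lost it with arrays centred and scaled. When each orientation was averaged to 1 value before the fit, 0 members and 0 of all probes passed in limma. In that limma fit 12 members had an unadjusted p under 0.05, and the same count over all probes was not made.

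**Figure D2:**
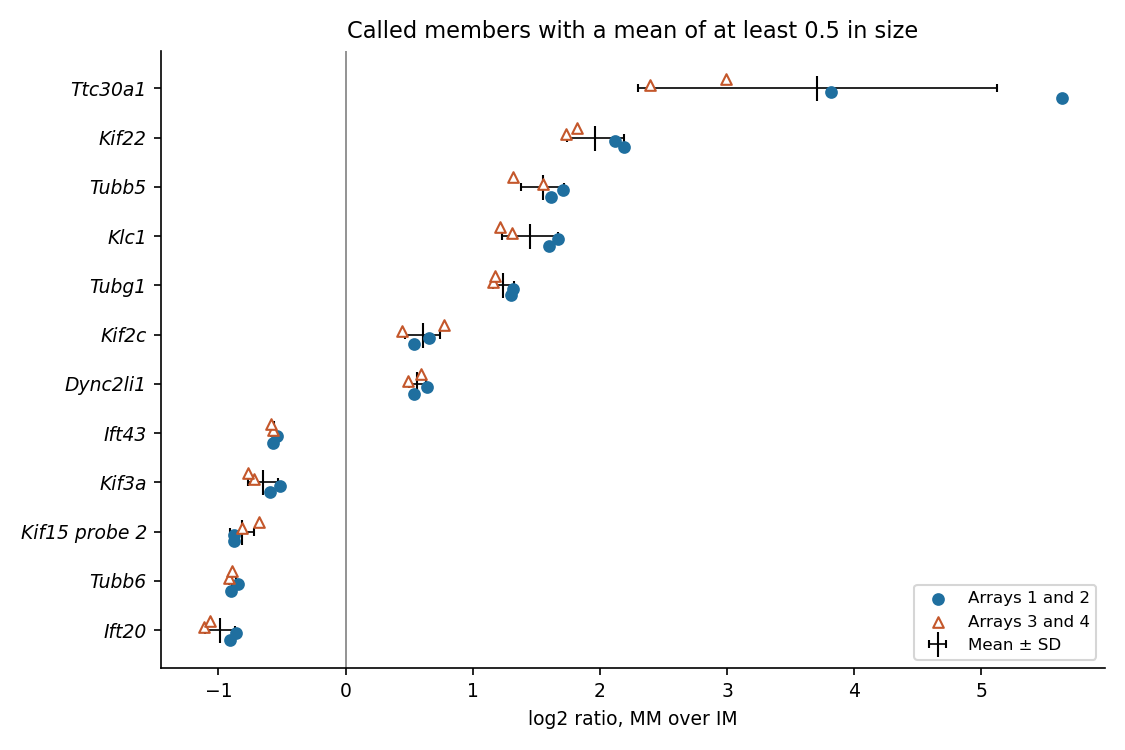
Log2 ratios of MM over IM (x axis) for the 12 called members with a mean of at least 0.5 in size, with a symbol for each array and a bar for the mean ± SD over 4 arrays. Every array of each member lies on 1 side of 0, and Ttc30a1 has the widest spread, from 2.39 to 5.63.

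The sequences before the start of transcription are shown for called members of each direction that passed without each array, so that motifs known from cell cycle promoters can be seen beside the ratios. They are the 250 bases before the start on the strand of the gene, from RefSeq in the build GRCm38.p6. Such a window was found for 80 of the 100 member genes, Tubg1, Dync2li1 and Tubb6 not among them. Windows that overlap a neighbouring gene (those of Ift20, Kif15 and Kif3a) are not printed. Capitals mark the CCAAT box (CCAAT) and the cell cycle homology region, CHR (TTTGAA), on either strand, so that matches on the other strand read ATTGG and TTCAAA, and no marked matches overlap. The windows are chr7:127042421-127042670 (minus strand) for Kif22, chr17:35838302-35838551 (minus strand) for Tubb5, chr12:111758618-111758867 (plus strand) for Klc1 and chr12:86082311-86082560 (plus strand) for Ift43.
Kif22: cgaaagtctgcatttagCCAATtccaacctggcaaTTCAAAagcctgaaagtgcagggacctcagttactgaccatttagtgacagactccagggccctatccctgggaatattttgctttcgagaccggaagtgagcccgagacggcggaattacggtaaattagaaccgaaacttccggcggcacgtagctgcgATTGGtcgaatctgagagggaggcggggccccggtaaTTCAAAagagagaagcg
Tubb5: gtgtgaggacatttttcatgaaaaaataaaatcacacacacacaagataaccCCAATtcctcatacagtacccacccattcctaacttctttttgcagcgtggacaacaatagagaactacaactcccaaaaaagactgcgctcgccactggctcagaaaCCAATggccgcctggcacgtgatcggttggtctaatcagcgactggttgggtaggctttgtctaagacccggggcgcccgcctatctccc
Klc1: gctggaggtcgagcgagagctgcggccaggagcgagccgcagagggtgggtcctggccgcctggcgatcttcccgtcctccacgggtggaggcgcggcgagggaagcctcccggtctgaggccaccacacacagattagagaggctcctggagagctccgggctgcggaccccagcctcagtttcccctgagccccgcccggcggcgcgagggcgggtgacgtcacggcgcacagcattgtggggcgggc
Ift43: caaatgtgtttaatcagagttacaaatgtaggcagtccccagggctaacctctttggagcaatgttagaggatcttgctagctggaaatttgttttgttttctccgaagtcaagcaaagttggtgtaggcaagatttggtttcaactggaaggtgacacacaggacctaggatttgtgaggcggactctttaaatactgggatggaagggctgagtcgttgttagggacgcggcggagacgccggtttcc

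The window of Kif22 held 2 CCAAT boxes and 2 CHR motifs, and that of Tubb5 held 2 CCAAT boxes and 0 CHR motifs. Neither was in the windows of Klc1, which was higher, and Ift43, which was lower. The windows not printed belong to members called lower, Kif15 by 1 of its 3 probes, which disagreed in direction. That of Kif15 held 0 CCAAT boxes and 2 CHR motifs, that of Kif3a 1 CCAAT box and 0 CHR motifs, and that of Ift20 neither. Over 27025 windows of the same length, 34.5% held a CCAAT box and 16.3% a CHR, against 47.5% and 13.8% of the 80 member genes. The GC box (GGCGGG, either strand), which is not marked, was in 32.6% of all windows and 57.5% of those of member genes. By group, a CHR was in 9 of 51 motor genes, 2 of 13 tubulin genes and 0 of 16 ciliary genes. The shares were not matched for base content or limited to genes on the array. A match describes letters and is not a site of binding.

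Kif22 had the highest mean of the tested motors. It is a chromokinesin, a motor that binds chromosome arms and pushes them towards the middle of the spindle. Its log2 ratios were 2.19, 2.12, 1.73 and 1.82 on arrays 1 to 4. All 4 arrays were high, those of the first orientation somewhat more so (1.97 ± 0.22, SD, n = 4, 3.90-fold, limma adjusted p = 0.00259). Only 132 of the 14184 tested probes had a higher mean.

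Other mitotic kinesins went both ways. Of 10 tested probes, Kif22 included, 2 were higher, 2 lower and 6 did not pass, with a median of 0.17. Kif2c, which takes microtubules apart at the centromere, read 0.54, 0.66, 0.45 and 0.77 (0.61 ± 0.14, limma adjusted p = 0.0103). Kif18b, which acts at the tips of spindle microtubules, read -0.49, -0.50, -0.33 and -0.38 by the probe with 4 values (-0.42 ± 0.09, limma adjusted p = 0.0116), and its other probe had a single value, 0.67 on array 3. All arrays of both genes lay on 1 side of 0 in the tested probes. Kif11, which slides the spindle poles apart, was close to 0 on each array (-0.07, 0.02, -0.01 and -0.10), as was Kif20a, a kinesin of cytokinesis (0.07 ± 0.06). A probe named Kif8, which RefSeq lists as a synonym of Kif11, read -1.43 and -0.65 on arrays 1 and 2 alone. Whether it reads the same gene was not tested. Kif2a, a depolymerising kinesin of spindle poles, had a higher mean than Kif2c but a wider spread (0.27, 0.41, 1.09 and 1.28; 0.76 ± 0.50, limma adjusted p = 0.077).

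The 3 probes of Kif15, a spindle kinesin that works beside Kif11, disagreed. The probe called lower read -0.88, -0.88, -0.81 and -0.68 (-0.81 ± 0.09, limma adjusted p = 0.00368). Another read 0.07, 0.15, 0.12 and 0.10 (limma adjusted p = 0.14), and the last read -1.16 and -1.06 on arrays 1 and 2 alone. The gene therefore has no single direction here, and what each probe matches was not tested. Of the kinesins of cytokinesis, Kif20b read 2.78 and 2.97 and Kif23 read 1.29 and 4.36, on arrays 1 and 2 alone. Both were high, without a test. Kif4, a chromokinesin, read 0.23 and 0.06 on the first orientation, then -0.50 on array 4, and Kif18a had a single value of 0.06.

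Markers of proliferating cells are given beside the mitotic kinesins. Of 8 tested probes, the mitotic kinases Plk1 (0.52 ± 0.05) and Aurka (0.31 ± 0.09) were higher and Aurkb (-0.31 ± 0.07) was lower, and the median of the list ran from -0.07 to 0.09 over the arrays. Mki67, a protein of dividing nuclei, read -0.10, -0.05, -0.49 and -0.46 and did not pass. The part of these markers in the mitotic kinesin ratios was not tested. In whole tissue, fewer cells of a type and less RNA per cell cannot be told apart.

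Among the tested transport kinesins and their light chains, Klc1 had the highest mean. It is a light chain of kinesin-1, the part that binds cargo. Its ratios of 1.60, 1.67, 1.31 and 1.22 were all well above 0 (1.45 ± 0.22, 2.73-fold, limma adjusted p = 0.00384). Klc4, another light chain, read 1.03 and 0.88 on the first orientation (arrays 1 and 2), with array 3 at the floor. The heavy chains of kinesin-1 had values on arrays 1 and 2 alone: 0.05 and 0.24 for the broadly expressed Kif5b and -1.45 and -1.87 for the neuronal Kif5a.

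Of 14 tested probes of kinesins outside the mitotic list, 1 was higher, 3 were lower and 10 did not pass. Kif3a, the kinesin-2 subunit that drives outward transport in cilia, read -0.60, -0.52, -0.72 and -0.77, below 0 throughout (-0.65 ± 0.12, limma adjusted p = 0.00688). Its accessory subunit Kifap3, no member by name, was lower as well (-0.44 ± 0.14, limma adjusted p = 0.0205). Kif3b, the usual partner of Kif3a, read -0.12, 0.13, 0.58 and 0.99 and did not pass (0.39 ± 0.49, limma adjusted p = 0.274). Kif3b and Kif3a thus lay on opposite sides of 0 on arrays 2, 3 and 4, where Kif3b was above 0 and Kif3a below. Smaller calls were Kif3c, a kinesin-2 of neurons (-0.32 ± 0.13), whose call was lost with centred arrays, Kifc2, of the minus-end family (-0.32 ± 0.04), and Kif13a, an endosomal kinesin that was higher (0.29 ± 0.12). Kif17, another kinesin-2, was near 0 (0.07 ± 0.07), as was Kif1a, which carries synaptic vesicles (-0.11 ± 0.06). The other tested kinesins that did not pass (Kif1b, Kif21a, Kif2b, Kif6, Kif9, Kifc3 and a probe of Kif16b) had means from -0.22 to 0.14.

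Cytoplasmic dynein had 2 higher and 1 lower of 10 tested probes, with a median of -0.05. Dync1i2, an intermediate chain that links the motor to dynactin, read 0.41, 0.45, 0.39 and 0.35 (0.40 ± 0.04, limma adjusted p = 0.00798). Dync1li1, a light intermediate chain that binds cargo adaptors, read -0.44, -0.37, -0.48 and -0.47 (-0.44 ± 0.05, limma adjusted p = 0.00724). These subunits of one motor lay on opposite sides of 0 on every array. Dync1h1, the heavy chain that makes the force, did not pass by either probe. One read -0.19, -0.13, -0.25 and 0.19 (-0.09 ± 0.20), and the other split by orientation at -0.41, -0.34, 0.34 and 0.49 (0.02 ± 0.46). Nor was a call made for the light chains Dynll1 (-0.25 ± 0.32), Dynlrb2 (0.00 ± 0.15) and Dynlt1b (0.01 ± 0.20) or the intermediate chain Dync1i1 (-0.27 ± 0.37). Dync2li1, the light intermediate chain of the ciliary dynein 2, was higher at 0.54, 0.64, 0.49 and 0.60 (0.57 ± 0.07, limma adjusted p = 0.00512). Its heavy chain Dync2h1 read 0.11, 0.13, -0.29 and -0.30, with arrays 1 and 2 above 0 and arrays 3 and 4 below, and -0.53 and -0.30 on arrays 1 and 2 by another probe. The light chain Dynlt3 had values on arrays 3 and 4 alone, 1.22 and 0.75.

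Dynein works with dynactin and other regulators. The list of these genes also held Kifap3, the kinesin-2 subunit given above. Of its 12 tested probes 4 were called higher and 3 lower, Kifap3 among the lower. Actr1a, which forms the short filament of dynactin, was higher (0.97 ± 0.13, limma adjusted p = 0.00387), with Pafah1b1, the LIS1 regulator of dynein (0.58 ± 0.12), its partner Nde1 (0.43 ± 0.15) and Spdl1, the adaptor of dynein at kinetochores (2.62 ± 1.23). The dynactin subunits Dctn6 (-0.60 ± 0.11) and Dctn3 (-0.53 ± 0.11) were lower, beside Kifap3.

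Axonemal dyneins power motile cilia. Of 6 tested probes 1 was lower, by a small amount, and 5 did not pass. It was a probe of the heavy chain Dnah8 (-0.27, -0.18, -0.29 and -0.20; -0.24 ± 0.05, limma adjusted p = 0.0296), whose call was lost with centred arrays. The other Dnah8 probe read -0.03 and 0.06 on arrays 1 and 2. Dnah11, a heavy chain known for left-right asymmetry, split by orientation, at -0.74 and -0.54 on arrays 1 and 2 against 1.27 and 0.64 on the others. The intermediate chain Dnaic1 split in the same way (-0.43, -0.45, 0.31 and 0.41). Dnah17 (-0.16, -0.13, -0.18 and -0.44; -0.23 ± 0.14), Dnah2 (-0.30, -0.31, -0.12 and -0.08; -0.20 ± 0.12) and Dnah12 (0.06 ± 0.20) did not pass. The other Dnah2 probe read 0.10 and 0.11 on arrays 1 and 2.

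Beta tubulins had the widest range of the tubulins. All 7 probes were tested, with 1 higher, 3 lower and 3 that did not pass. Tubb5, a broadly expressed isotype, read 1.62, 1.71, 1.55 and 1.32 (1.55 ± 0.17, 2.93-fold, limma adjusted p = 0.00259). Every array of Tubb5 lay above every array of the other 6 isotypes. Tubb6 was uniform in the other direction, at -0.90, -0.85, -0.91 and -0.89 (-0.89 ± 0.03, 1.85-fold lower, limma adjusted p = 0.0023). Tubb3, the isotype of neurons, was lower at -0.56, -0.58, -0.41 and -0.43 (-0.49 ± 0.09, limma adjusted p = 0.00831), and Tubb1, the isotype of platelets, slightly so (-0.20 ± 0.06, limma adjusted p = 0.0463), a call lost with centred arrays. Tubb2b (0.23 ± 0.17) and Tubb4a (-0.22 ± 0.10) did not pass. Tubb4b split by orientation, with 0.18 and 0.30 against -0.58 and -0.50. Tubulin genes have similar coding sequences and the probe sequences were not used here, so values of single isotypes are uncertain and cross-hybridisation was not tested.

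Neural markers are given beside Tubb3. Of 9 tested probes 3 were lower and 0 higher in limma: Sox2 (-0.93 ± 0.04), a factor of neural progenitors, and Elavl4 (-0.97 ± 0.40) and Neurog1 (-0.31 ± 0.10), genes of neurons and their precursors. Of the same probes 0 were higher at an unadjusted p under 0.05 and 1 with the orientation term. The median of the list ran from -0.46 to -0.11 over the arrays, and its part in the ratio of Tubb3 was not tested.

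Alpha tubulins, the partners of beta tubulin in the microtubule wall, were closer to 0. Of 4 tested probes 1 was higher and 3 did not pass. Tuba1a, the main isotype of the embryonic brain, was higher (0.23, 0.16, 0.31 and 0.28; 0.24 ± 0.07, limma adjusted p = 0.0327). Its near copies Tuba1b (0.31, 0.03, 0.52 and 0.46; 0.33 ± 0.22, limma adjusted p = 0.0938) and Tuba1c (-0.04 ± 0.06) did not pass. Tuba4a read 0.32, 0.10, 0.15 and 0.04 by one probe and -0.23 and 0.34 on arrays 1 and 2 by another. Tuba3a, Tuba3b and Tuba8 had values on arrays 1 and 2 alone, from -0.59 to 0.28.

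Tubg1, the gamma tubulin from which microtubules start to grow, was 2.36-fold higher in MM. Its ratios of 1.30, 1.32, 1.16 and 1.17 differed little between arrays (1.24 ± 0.08, limma adjusted p = 0.00207). Of the proteins that hold gamma tubulin in its ring, Tubgcp2 was near 0 (0.02, 0.16, -0.04 and 0.01; 0.04 ± 0.08) and Tubgcp4 read 0.20, 0.87 and 0.66 on arrays 1 to 3.

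Tubulin is folded by the chaperonin TRiC and a series of cofactors. Of 25 tested probes for folding and modification of tubulin, 5 were higher, 4 lower and 16 did not pass. The higher calls of smallest p were the TRiC subunits Cct5 (1.22 ± 0.07, limma adjusted p = 0.00182), Tcp1 (1.35 ± 0.11) and Cct6a (0.65 ± 0.13). TRiC was singled out after its values were seen: 4 of 9 tested probes of its subunits were higher and 0 lower in limma (0 lower at an unadjusted p under 0.05 and 1 with the orientation term). Cct8 was at 0.00 ± 0.06. The probe lower with the orientation term was that of Cct2, which read 4.01 and 4.71 on the first orientation and sat at the floor on the other. The lower calls of smallest p were the prefoldin subunit Pfdn1 (-0.48 ± 0.09), the cofactor Tbcc (-0.22 ± 0.06) and Tube1, epsilon tubulin (-0.18 ± 0.02).

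**Figure D3:**
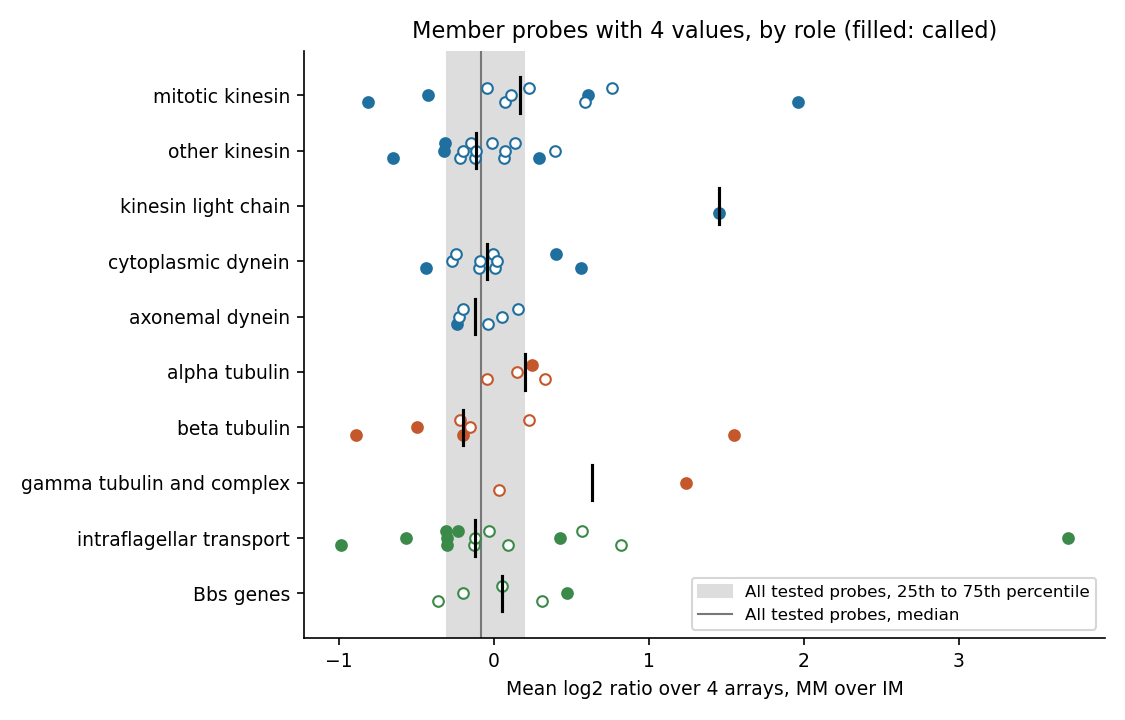
Mean log2 ratio over 4 arrays (x axis) of the 73 members with 4 values, 1 point each, by role, with called members filled, a bar for the median of each role, and a grey band and line for the quartiles and the median of all 14184 tested probes. Ttc30a1 at 3.71, Kif22 at 1.97 and Tubb5 at 1.55 lie farthest to the right.

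Of the intraflagellar transport genes, 6 of 14 tested were lower, 2 higher and 6 did not pass. Of all tested probes 14.4% were lower and 13.6% higher. Ift20, which also sits at the Golgi and sorts membrane proteins to the cilium, had the lowest mean of all tested members, at -0.91, -0.87, -1.11 and -1.07 (-0.99 ± 0.12, 1.98-fold lower, limma adjusted p = 0.00339). Ift43, a subunit of the IFT-A complex of return transport, read -0.57, -0.54, -0.57 and -0.58, almost the same on each array (-0.57 ± 0.02, limma adjusted p = 0.00372). Smaller calls lower in MM were the IFT-B subunits of outward transport Ift172 (-0.31 ± 0.02), Ift27 (-0.30 ± 0.01), Ift88 (-0.30 ± 0.11) and Ift46 (-0.23 ± 0.07). These smaller calls were lost whichever array was left out, and those of Ift88 and Ift46 also with centred arrays. Hspb11, the partner of Ift27 and no member by name, was lower too (-1.05 ± 0.08, limma adjusted p = 0.00239). It comes from a list of other ciliary genes, of which 3 of 23 tested probes were lower and 20 did not pass. Cluap1 (0.27 ± 1.62), Traf3ip1 (0.09 ± 0.12) and Ttc21b (-0.15 ± 0.18) of that list did not pass. Wdr35, also listed there, read 0.68, 0.47 and 0.60 on arrays 1, 2 and 4, without a test.

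Other subunits of the same complexes were higher or did not pass. Ift57, of IFT-B, was higher at 0.16, 0.39, 0.62 and 0.55 (0.43 ± 0.20, limma adjusted p = 0.0447), a call lost whichever array was left out. Ift140, of IFT-A, read 1.20, 1.15, 0.26 and 0.68 (0.82 ± 0.44, limma adjusted p = 0.0509), and Ift80, of IFT-B, read 0.95, 0.85, 0.25 and 0.22 (0.57 ± 0.39, limma adjusted p = 0.0867). Both were above 0 on every array, higher on arrays 1 and 2 than on arrays 3 and 4, and missed the threshold. The fit with a term for orientation called both higher (limma adjusted p = 0.00546 and 0.00162). That fit called 61.9% of all tested probes, and of the 19 ciliary members 6 higher and 9 lower. Ift122 (-0.03 ± 0.05), Ift22 (-0.13 ± 0.09), Ift81 (-0.12 ± 0.26) and Ift74 (0.09 ± 0.42) did not pass. Of these, Ift22 was called lower with the orientation term (limma adjusted p = 0.026). By complex, a split formed after the values were seen, 0 higher and 1 lower of 3 IFT-A probes and 2 higher and 5 lower of 11 IFT-B probes were called in limma, and of IFT-A 1 probe was higher at an unadjusted p under 0.05 and 1 with the orientation term.

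Ttc30a1, an IFT-B subunit whose family is known for its part in the glutamylation of ciliary tubulin, had the highest mean of all tested members. Its ratios were 5.63, 3.82, 2.39 and 2.99, all high but spread over 3.24 log2 units (3.71 ± 1.41, limma adjusted p = 0.0216). Only 4 tested probes had a higher mean. The adjusted p in limma lay between 0.0413 and 0.0966 with 1 array left out. Mouse has near copies of this gene, and which of them the probe reads was not tested.

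Many genes of intraflagellar transport are targets of RFX factors, which bind the X-box. An X-box match, on either strand, was found in the windows of 3 of the 80 member genes, Ift57, Kif18a and Klc4, or 3.75%, beside 0.577% of all windows. The shares were not matched for base content or limited to genes on the array. The match of Kif18a lies in a stretch that overlaps a neighbouring gene, Mettl15. Of the 51 motor genes with a window 2 held a match. Of the 16 ciliary genes with a window 1 held it, that of Ift57, and its surroundings are shown because Ift57 was called. They lie at chr16:49699182-49699245 (plus strand, GRCm38.p6, RefSeq), with the X-box in capitals.
Ift57: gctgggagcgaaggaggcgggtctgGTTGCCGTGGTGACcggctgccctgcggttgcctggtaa

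The Bbs genes, most of which encode parts of the BBSome, an adaptor that moves membrane proteins out of cilia, had 1 call in 5 tested probes. Bbs5 was higher at 0.41, 0.52, 0.39 and 0.58 (0.48 ± 0.09, limma adjusted p = 0.00945). Bbs9 read -0.20, -0.19, -0.54 and -0.50, below 0 throughout, and missed the threshold (-0.36 ± 0.19, limma adjusted p = 0.0561). Bbs2 (-0.20 ± 0.20), Bbs7 (0.06 ± 0.19) and Bbs10 (0.31 ± 0.28), a chaperonin-like helper of BBSome assembly, did not pass. With the orientation term, Bbs9 and Bbs2 were lower (limma adjusted p = 0.00261 and 0.0104) and Bbs10 was higher (limma adjusted p = 0.00837). Of 23 tested probes for other ciliary genes, 3 were lower and 0 higher in limma, 13% beside the 28.0% of all tested probes. At an unadjusted p under 0.05 1 was higher and 6 lower, beside 2544 higher and 3133 lower of all 14184 tested probes. With a term for orientation 1 was higher and 11 lower, beside 23.8% higher and 38.1% lower of all tested probes. Those 11 include Tmem67, far above 0 on arrays 1 and 2 but at the floor on arrays 3 and 4. Its mean is below 0 only through the floor values, which are no measured fold. The 3 lower calls by adjusted p without that term were Hspb11, Mkks, an assembly factor of the BBSome (-0.71 ± 0.14), and Tulp3, an adaptor for ciliary receptors (-0.25 ± 0.05).

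Proteins that bind and shape microtubules had 6 higher and 5 lower of 25 tested probes called, and the 4 tested probes of that list that reached the floor were among those without a call. Map1b, known from growing axons, was higher (1.80 ± 0.30, limma adjusted p = 0.00422), as were Clasp1, which steadies plus ends (0.72 ± 0.16 by one of its probes), and Tpx2, which builds the spindle (1.04 ± 0.31). Map4, a broadly expressed stabiliser (-0.37 ± 0.03), Dcx of migrating neurons (-0.71 ± 0.19) and Map2 of dendrites (-0.38 ± 0.08) were lower.

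**Figure D4:**
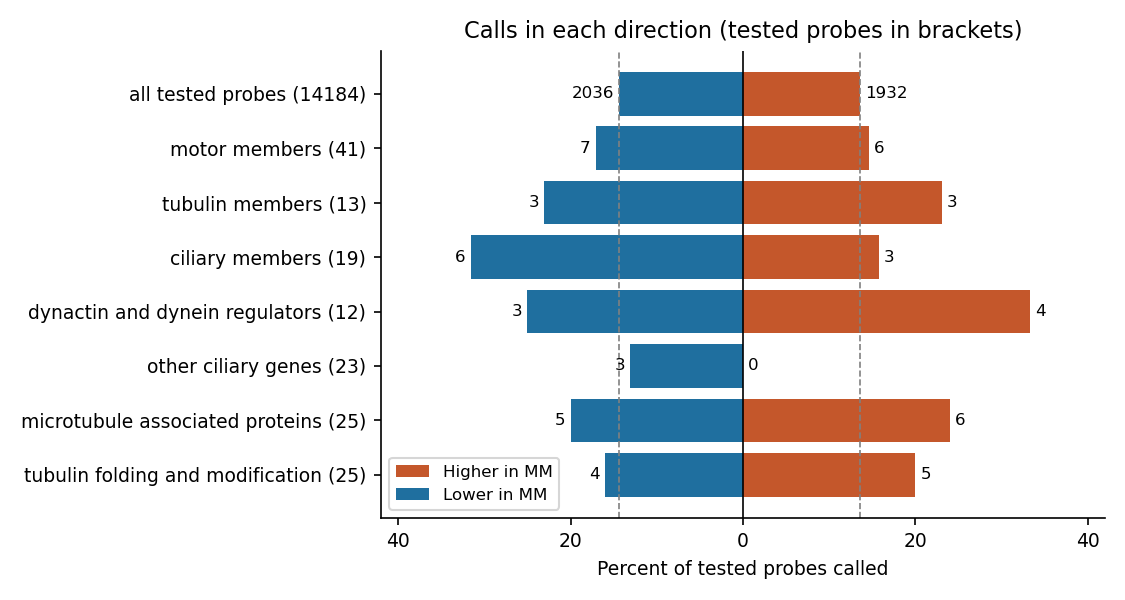
Percent of tested probes called higher in MM (to the right) and lower in MM (to the left) for all tested probes, the 3 groups of members and 4 lists of related genes, with the number called at the end of each bar and dashed lines at the 13.6% and 14.4% of all tested probes. Other ciliary genes have 0 higher calls, and ciliary members have 6 lower and 3 higher.

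Some members with incomplete data reached the floor. Besides Klc4, it was reached on array 3 by Dnah7a (-0.72 and -0.17 on arrays 1 and 2), one probe of Kif16b (0.16 and -0.03) and Kif26b (-0.64 and 0.56). On array 4 it was reached by Dnah1 (1.84 and 0.13), Kif12 (1.15 and 0.28) and the pseudogene Kifc5c-ps (1.64 and -0.13). The arrays of 1 orientation differed in sign for Kif16b, Kif26b and Kifc5c-ps, and a floor value is no measured fold. With values on arrays 1 and 2 alone, Kif7, a regulator of Hedgehog signals at the cilium tip, read 0.72 and 0.16, its relative Kif27 read -1.77 and -0.46, and Kif19a, which sets the length of motile cilia, read -1.70 and -0.97. Kif13b read 3.16 and -0.04 on arrays 1 and 2 and -0.23 on array 4 by one probe, and 1.25 and 0.25 on arrays 1 and 2 by the other, so repeats of 1 orientation could differ widely. Kif8, a symbol that RefSeq lists as a synonym of Kif11, read -1.43 and -0.65, and Kif1c read 0.80 and 0.06. The remaining values, from -0.93 to 0.62, were those of Kif26a, Dnah3, Dnah6, Dnah10 (with -0.17 on array 4), the other probe of Dnah17, the pseudogene Kif4-ps and the antisense Kif16bos. None of these values has a test.

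Some members changed sign with the orientation of the channels. The mean of arrays 1 and 2 and that of arrays 3 and 4 had opposite signs for 19 of 73 tested members, or 26%, and for 42.3% of all tested probes, and the difference was not tested. By group it was 14 of 41 motors, 2 of 13 tubulins and 3 of 19 ciliary members. Among mitotic kinesins, Kif14, of cytokinesis, read 0.08, -0.82, 1.51 and 1.58, and Kif24, of centrioles, read -0.44, -0.23, 0.98 and 0.60, both higher on arrays 3 and 4. One sign on all 4 arrays was seen for 46 of the 73 members, beside 49.4% of all tested probes. This share and the 42.3% include probes with floor values, which no tested member had. With orientation as a term in the fit, 21 members were higher and 27 lower in limma, where 61.9% of all tested probes were called, 23.8% higher and 38.1% lower, and all 28 calls given above were among them. The spread in that fit comes from arrays of 1 orientation. Those correlated at 0.836 and 0.912 (Pearson, across 13191 probes with no floor value, which are not independent), and arrays of different orientation at 0.113 to 0.274, or -0.349 to -0.26 with floor values kept.

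**Figure D5:**
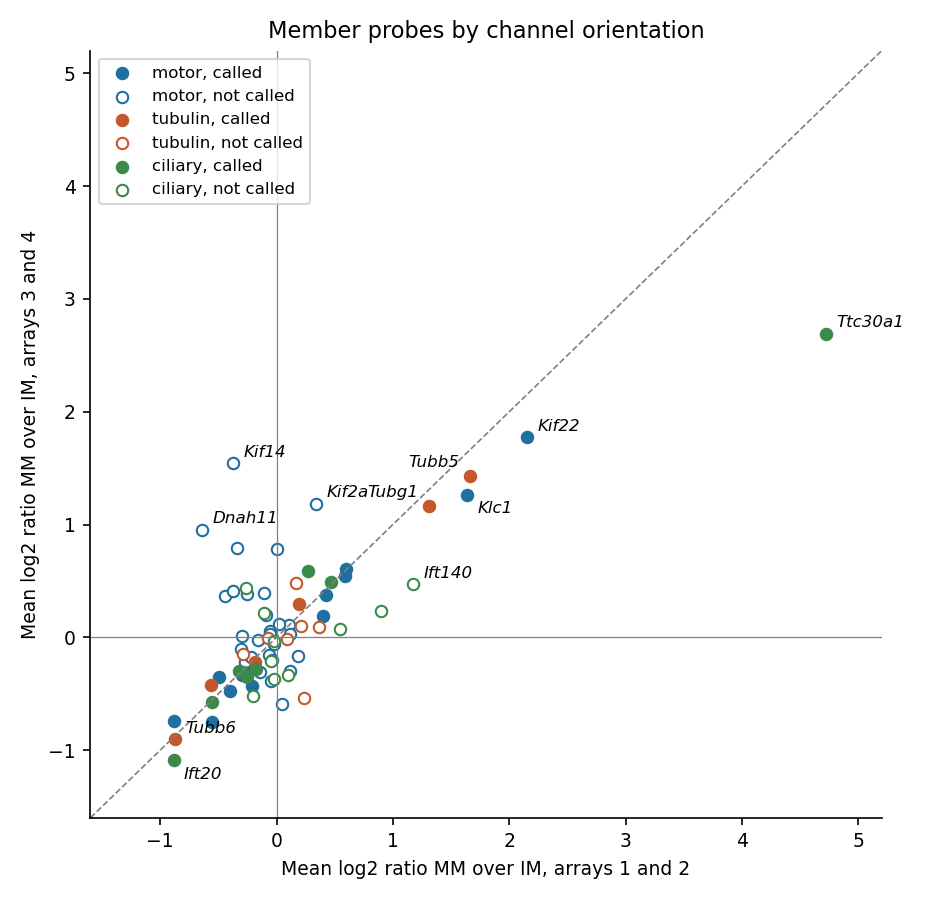
Mean log2 ratio on arrays 1 and 2 (x axis) against that on arrays 3 and 4 (y axis) for the 73 tested members, marked by group, with called members filled and a dashed line of equality. The means of Kif14 and Dnah11 are below 0 on arrays 1 and 2 and above 0 on the others, and Ttc30a1 lies farthest from the other called members.

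The arrays held 15812 to 21599 values, of which 8 to 16 were at the floor in the first orientation and 1672 to 1805 in the other, and their number limits the precision. Of 9 tested probes for markers of metanephric mesenchyme, 4 were higher, among them Six2 (3.00 ± 0.63), Gdnf (1.92 ± 0.13) and Hoxa11 (1.92 ± 0.59), and 1 was lower, Wt1 (-1.57 ± 0.02), which goes against that list. Of 6 tested nephric duct probes 1 was higher, Emx2 (0.69 ± 0.36), and 2 were lower, Cdh16 (-1.40 ± 0.05) and Gata3 (-0.35 ± 0.04). Of 6 tested muscle probes 1 was higher, Des (0.97 ± 0.13), and 4 were lower, among them Myl1 (-2.57 ± 0.26), Tnnt1 (-2.03 ± 0.36) and Tnni1 (-1.34 ± 0.33), with a median of -1.39 over the list. The part of these tissues in the member ratios was not tested.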

How the data were processed

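Ratios of 2 labelled RNA pools were measured on 4 spotted oligonucleotide arrays, quantified with ImaGene. The deposited values are log2 ratios that the authors made, per the labels: the dye swap was undone by reversing the channels of arrays 3 and 4, control values were adjusted by lowess with a span of 20.0% of the data, and control values under 10 were set to 10. The base of the logarithm was checked on the spacing of the values. For background correction, spot flags and missing values the method is not given in the sources used here. Genes were named from the platform annotation, and 108 of 111 members had a gene identifier in RefSeq.

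Each probe with 4 values was fitted in limma 3.58.1 (R 4.3.3) with 1 intercept, and p-values were adjusted by Benjamini-Hochberg over 14184 probes with a threshold of 0.05. The fit was tested on simulated data. The alternatives were a term for orientation, orientations averaged, centring, scaling, floor values left out, probes with 3 values, array weights, robust shrinkage and leaving out each array. Named with full values were called members of at least 0.5 in size, the 2 probes of largest mean size in each role, members at the floor and genes with probes of opposite sign. From each other list the 3 called probes of smallest p in each direction were named, and further members are given by single values. Members and lists were chosen with earlier results of these data known.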

Additional observations from a re-analysis of the deposited data

Results flagged for a closer look

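One value stood apart from the other arrays. The probe of Dnah17, an axonemal dynein heavy chain, with 4 values read -0.44 on array 4, and the gap to its nearest neighbour was 0.853 of the whole range, above Dixon's critical value for 4 arrays. Of 28 results checked this was the only one, and chance gives such a gap in about 5% of groups. The probe did not pass the test.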

How the results depend on the processing

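Against 12 members higher and 16 lower, a term for orientation gave 21 and 27, orientations averaged to 1 value gave 0 and 0, and leaving out 1 array gave 5 to 7 and 5 to 8. Centring, scaling, leaving out floor values, testing probes with 3 values, array weights and robust shrinkage gave 9 to 13 higher and 11 to 17 lower. Over all probes the orientation term gave 3371 higher and 5408 lower, and leaving out 1 array gave 794 to 1031 higher and 423 to 636 lower. The median of tubulins moved from 0.04 to 0.17 on arrays 1 and 2 alone. That of ciliary members moved from -0.12 to -0.21 on arrays 3 and 4 alone and lay between -0.1541 and -0.0218 with 1 array left out, the latter without array 3. Among the members named by the rule, the means that changed sign with an array left out were those of Dync1h1 probe 2 (-0.0864 without array 3, and -0.1367 to 0.1619 over the 4 arrays left out in turn) and Tubgcp2 (-0.0046 without array 2, the highest being 0.0610). The cause was not tested. No paired analysis was possible because the 4 arrays form 1 group with no other group to share replicate numbers, and the pairing of the tissues within an array is already part of each ratio. No signal over background was used here, so the brightness behind each ratio is unknown.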
